A study of Mus musculus with 3 samples.

Results

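The genes described here are the matrix metalloproteinases Mmp2, Mmp3, Mmp9, Mmp13, Mmp14 and Mmp19, their inhibitors Timp1, Timp2 and Timp3, and the collagen-degrading cathepsin Ctsk. They were chosen by symbol as 10 of the 26989 genes listed in any of 3 single-cell count tables from mouse skin, and all 10 are listed in each table. Every library came from whole skin cells of C57BL/6 mice aged 9 weeks, dissociated and barcoded with the Singleron GEXSCOPE kits. The UV plus vitamin D library came from irradiated skin given VD, taken to mean vitamin D because the study's title names it, the UV library from irradiated skin given saline, and the control library from unirradiated skin given saline. Each group is 1 library, so no difference below has a replicate check, no test across samples was possible, and the values describe these libraries and not the treatments.

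Matrix metalloproteinases are zinc-dependent enzymes that cleave collagen, proteoglycans and other parts of the extracellular matrix, and most are secreted as inactive precursors. TIMPs bind the active enzymes and block them, while cathepsin K is a cysteine protease that degrades collagen in acidic compartments. In skin these enzymes are known for their part in wound repair and in the loss of dermal collagen after ultraviolet exposure, and several of their genes are classical targets of the transcription factor AP-1.

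The promoters of Mmp13 and Mmp3, with that of the neighbouring stromelysin gene Mmp10, are shown as genes counted together in a small set of irradiated keratinocytes described further on. The sequences come from RefSeq on the mouse build GRCm38.p6 and hold the 100 bases before each gene's start on the plus strand of chromosome 9. Capitals mark a match to TGANTCA, the form of the AP-1 motif that was searched; it is its own reverse complement, so 1 strand covers both.
Mmp13, chr9:7272414-7272513: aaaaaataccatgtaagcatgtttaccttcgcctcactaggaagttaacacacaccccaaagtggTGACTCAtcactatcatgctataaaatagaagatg
Mmp3, chr9:7445722-7445821: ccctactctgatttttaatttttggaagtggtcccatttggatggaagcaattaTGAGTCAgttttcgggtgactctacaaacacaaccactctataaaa
Mmp10, chr9:7502242-7502341: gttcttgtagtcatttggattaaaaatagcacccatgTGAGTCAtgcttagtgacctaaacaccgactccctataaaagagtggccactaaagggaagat

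The matches begin 35 bases before the start in Mmp13, 46 in Mmp3 and 63 in Mmp10, and each of the 3 windows also holds the letters TATAAA of the TATA box. Among the same 100-base windows of 32851 mouse promoters, 2.73% held the AP-1 form, 5.56% held the TATA box letters on either strand, and 0.234% held both. Of the 10 genes 7 were matched in the promoter table. Mmp2, Mmp9 and Mmp19 were not, so the promoter of Mmp9, which was also counted in those keratinocytes, could not be searched. The promoters of Mmp14, Timp1, Timp2, Timp3 and Ctsk held no such match in the 250 bases before to 50 after the start. A match is a run of letters and not a measured binding site.

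After filtering, the UV plus vitamin D library kept 6199 cells, the UV library 5451 and the control library 9078, with a median of 9301, 7566 and 6822.5 counts per cell in that order. Cells were clustered and named from marker genes. Keratinocytes made up 93.0% of the UV plus vitamin D library, 65.8% of the UV library and 93.4% of the control library. Fibroblasts numbered 209, 482 and 213 in the same order, and macrophages, monocytes and dendritic cells 90, 590 and 134. All 12 fibroblast markers were detected in the fibroblasts of every library. Summed macrophage markers in those fibroblasts were 14.9 CPM (each gene's counts scaled to the total counts of the class, as counts per 1e+06) in the UV plus vitamin D library, 311 CPM in the UV library and 39.2 CPM in the control library, with 7, 0 and 5 of the 12 at 0 counts. The defining fibroblast list summed to 191, 402 and 57.0 CPM in the macrophages, monocytes and dendritic cells, with 4, 0 and 6 of 12 at 0 counts. The part of such mixed RNA in the results was not tested. Suprabasal keratinocyte markers summed to 16777, 9205 and 12426 CPM in the same fibroblasts. Pairs of libraries shared 37 to 66 barcodes.

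Fibroblasts were the main source of these genes. They held 65.5% of the counts of all 10 genes in the UV plus vitamin D library, 73.0% in the UV library and 59.9% in the control library, while being 3.37%, 8.84% and 2.35% of cells. Ctsk was nearly confined to them, with 96.8%, 96.0% and 96.2% of its counts in fibroblasts. Mmp2 had 72.3%, 90.3% and 72.2% of its counts there, Mmp3 66.0%, 85.5% and 74.7%, and Timp2 80.2%, 70.6% and 76.7%. Mmp19 was the gene of macrophages, monocytes and dendritic cells, which held 69.9%, 71.0% and 86.4% of its counts.

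For Mmp9, Mmp13, Mmp14, Timp1 and Timp3 the shares of counts held by each class differed between libraries. For Mmp9, Mmp14 and Timp1 the class that held the most differed too. Fibroblasts held 224 of 477 Mmp14 counts in the UV plus vitamin D library, 1303 of 1864 in the UV library and 305 of 770 in the control library. Keratinocytes held 242, 261 and 424 of them in the same order. Keratinocytes held 3.85% of the Mmp9 counts in the UV plus vitamin D library, 76.2% in the UV library and 7.87% in the control library, whereas macrophages, monocytes and dendritic cells held 85.9%, 8.54% and 73.2%. Mmp13 came from keratinocytes for 89.5% of its counts in the UV library, where it had 1681 counts in all, against 27 in the UV plus vitamin D library and 6 in the control library. Timp1 had 30.9% of its counts in fibroblasts of the UV plus vitamin D library, 71.9% in those of the UV library and 42.3% in those of the control library. Keratinocytes, the largest class, held 79.0%, 50.7% and 84.7% of the Timp3 counts. By level Timp3 was lower in them, at 8.06, 15.6 and 18.4 CPM, than in fibroblasts, at 97.8, 108 and 122 CPM.

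**Figure D1:**
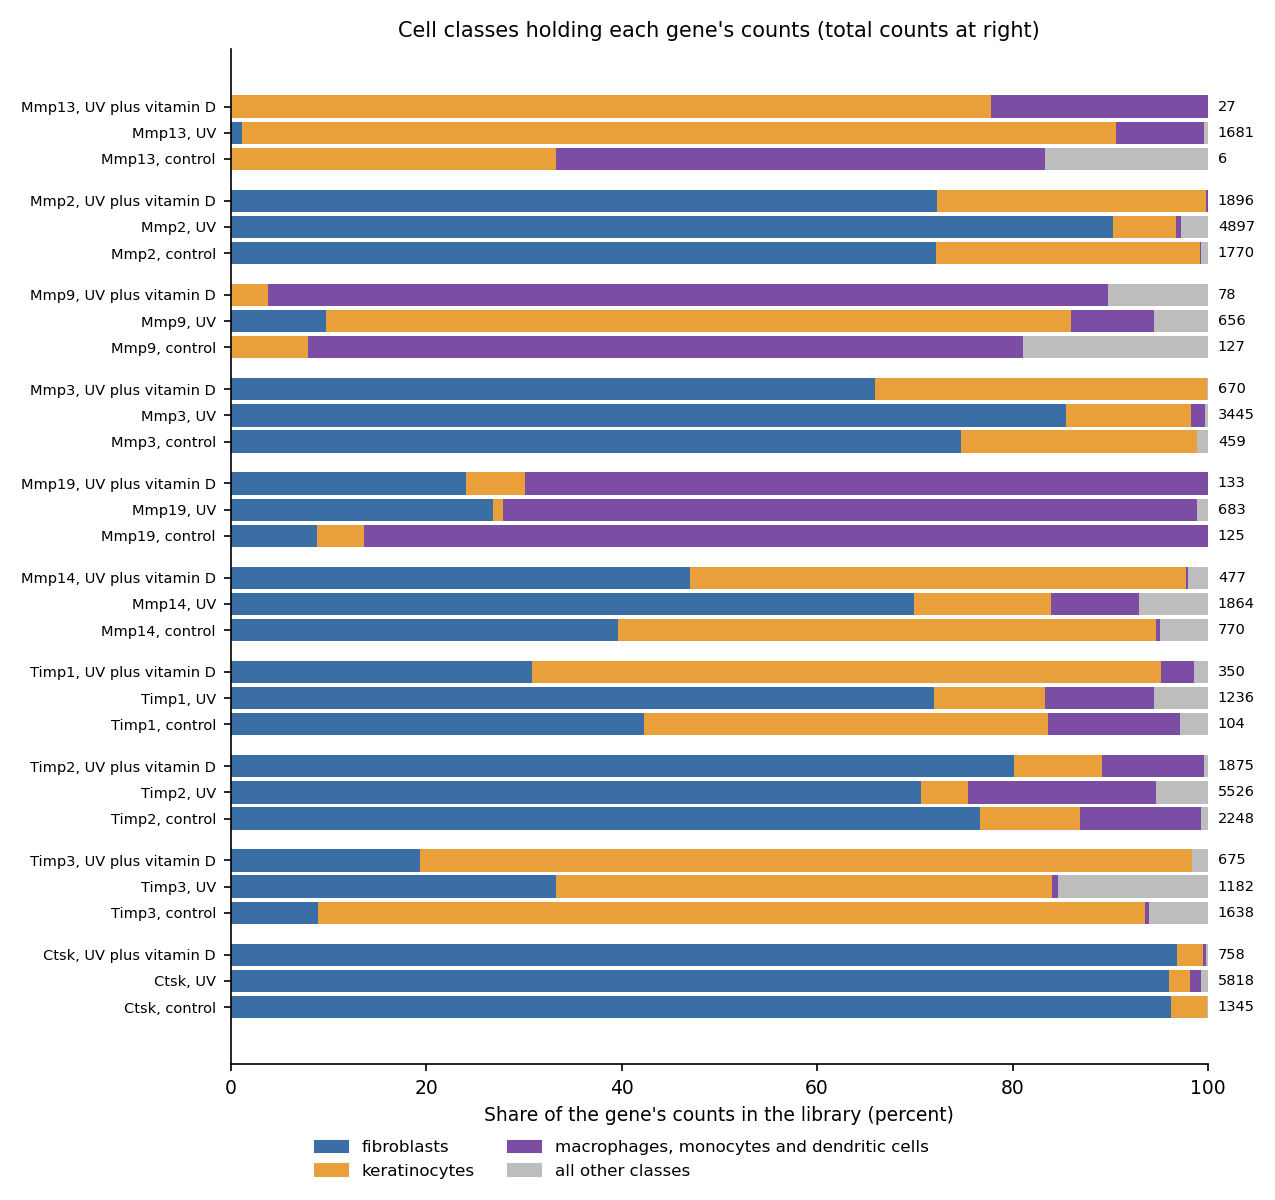
Stacked bars give the percent of each gene's counts held by each cell class, with 1 bar for each library and the gene's total counts at the right. Ctsk, Mmp2, Mmp3 and Timp2 are mostly fibroblast in every library, whereas Mmp9 is mostly keratinocyte in the UV library and mostly macrophage, monocyte and dendritic cell in the other libraries.

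Over whole libraries, where the cell classes also differ in share, 9 of the 10 genes were at least 1.5-fold higher in the UV library than in the control library and 0 were lower (background 6.35% of 15461 tested genes higher and 0.944% lower). All 10 were at least 1.5-fold lower in the UV plus vitamin D library than in the UV library (background 6.31% lower and 0.593% higher). Between the UV plus vitamin D and control libraries 0 were higher and 1 was lower (background 1.32% higher and 0.737% lower). These folds are ratios of CPM + 10 between libraries, for genes with at least 20 counts in the pair, and the 3 comparisons share libraries. At equal class shares the UV library was set against the control library by ratios of CPM with nothing added. Timp2 was at 0.936-fold, Mmp2 at 1.19-fold and Mmp14 at 1.31-fold, against 4.03-fold for Mmp3, 5.91-fold for Timp1 and 8.57-fold for Mmp9. On CPM + 10 the log2 ratios were -0.07 for Timp2, 0.18 for Mmp2 and 0.21 for Mmp14. They were 1.08 for Mmp3, 0.65 for Timp1 and 1.03 for Mmp9. At equal class shares UV plus vitamin D against UV had log2 ratios past 1.5-fold for Mmp3 (-1.11), Mmp13 (-2.02), Mmp14 (-0.84) and Ctsk (-1.33). Timp1 (-0.54), Timp3 (-0.31), Mmp9 (-0.30), Mmp2 (-0.24), Timp2 (0.014) and Mmp19 (0.0045) were under it. The values below are therefore given within classes. Intervals are exact 95% intervals that cover counting error only.

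Mmp13 is the main interstitial collagenase of the mouse. In keratinocytes it had 21 counts (0.317 CPM) in the UV plus vitamin D library, 1504 counts (39.2 CPM) in the UV library and 2 counts (0.0265 CPM) in the control library. High values were thus limited to the UV library, and the others were near 0. Its ratio to the control library was 1482-fold, with an interval of 409 to 12247 that reflects the 2 control counts, and the level in the UV plus vitamin D library was 124-fold below that in the UV library (80.6 to 200). Macrophages, monocytes and dendritic cells had 11.8 CPM in the UV plus vitamin D library, 46.6 CPM in the UV library and 4.07 CPM in the control library, from 6, 151 and 3 counts, the last in 1 cell. Fibroblasts had 0, 19 and 0 counts, under the minimum of 20.

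The keratinocyte Mmp13 came from few cells. Of the 3588 UV keratinocytes 34 had at least 3 Mmp13 counts and together held 1456 of the 1504 counts. In the UV plus vitamin D library 2 of 5765 keratinocytes did, 1 of them with 17 counts, and in the control library 0 of 8476. Of the 34 cells, 28 were in cluster 12, a follicle-type cluster led by Krt6a, S100a6 and Fst with Sox9, and 4 in the dividing basal cluster 17. Krt5 and Krt14, the basal keratins, were counted in all 34, and the leukocyte gene Ptprc in 1. The fibroblast gene Pdgfra and the macrophage gene Cd68 were counted in 0 of them.

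Other proteases were counted in those cells too. Mmp3 was counted in 24 of the 34 (225 counts), Mmp9 in 18 (400 counts) and Mmp10 in 21 (424 counts). Among the 3508 UV keratinocytes with 0 Mmp13 counts the shares with a count were 3.42% for Mmp3, 0.998% for Mmp9 and 0.884% for Mmp10. The median depth was 7109 counts in the 34 cells and 9563 in the 3508. The 34 cells were thus the shallower ones. Tnc, a matrix glycoprotein of wounds, was at 338 CPM in the 34 cells, against 3.86 CPM in the UV keratinocytes with 0 Mmp13 counts. These cells were chosen after their values were seen, so their levels are a description. When the 10 genes were left out of the clustering, 27 of the 34 were placed with the hair matrix and shaft cells. The other 7 were placed with the keratinocytes. The hair matrix and shaft class then held 42 UV plus vitamin D, 587 UV and 63 control cells, against 0, 316 and 0 before. Cells beyond the 34 thus changed class too, and the class of the 34 depends on the genes used for clustering.

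**Figure D2:**
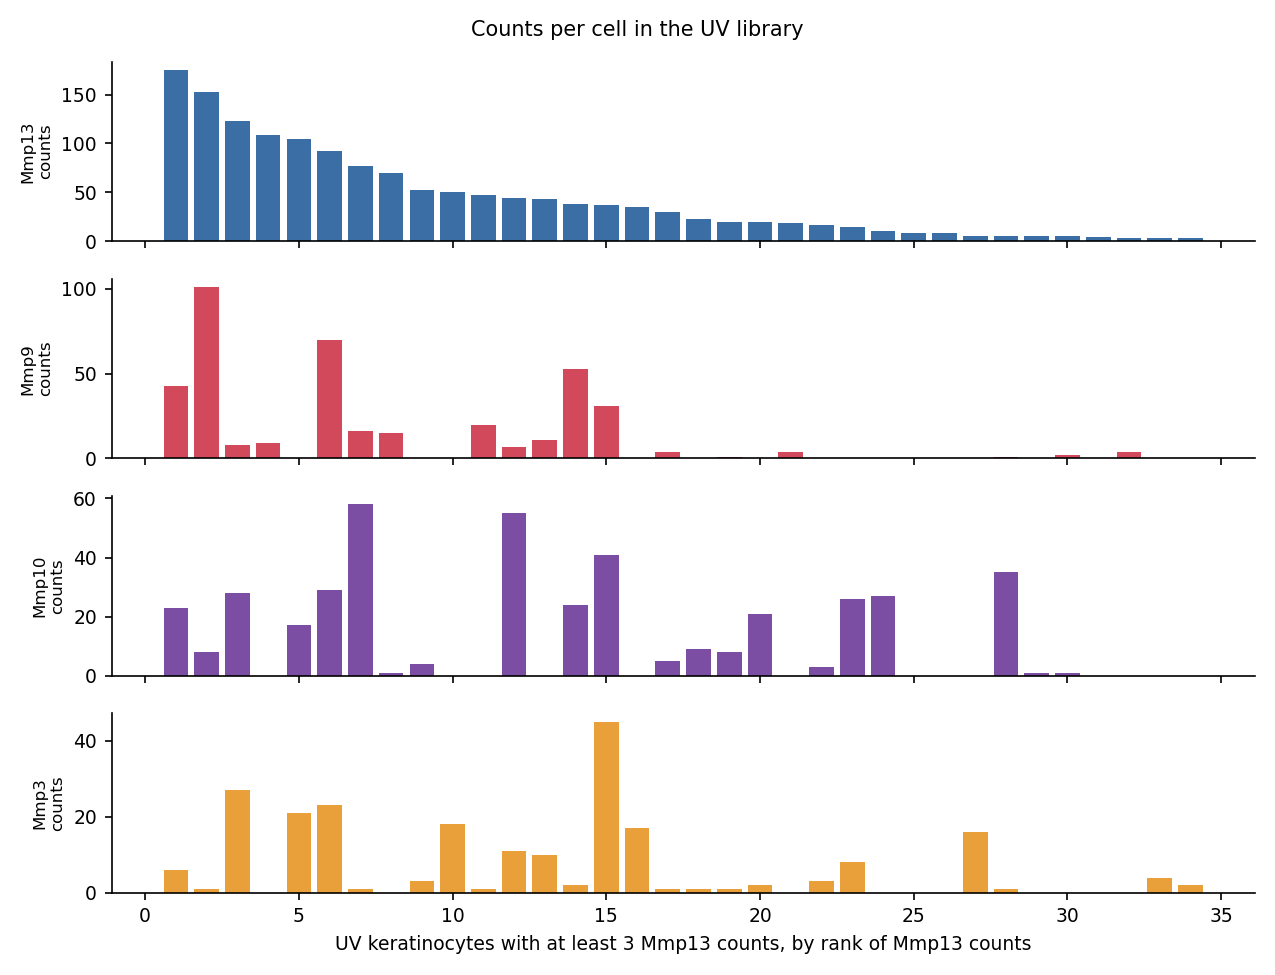
Counts per cell of Mmp13, Mmp9, Mmp10 and Mmp3 are shown for the 34 UV keratinocytes with at least 3 Mmp13 counts, ranked by Mmp13. Mmp3 was counted in 24 of the cells, Mmp10 in 21 and Mmp9 in 18.

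Mmp2 and Mmp9 are the gelatinases, which cleave denatured collagen and the type IV collagen of basement membranes. Mmp2 was close to level in fibroblasts, at 1024 CPM in the UV plus vitamin D library, 1216 CPM in the UV library and 1065 CPM in the control library. The UV library exceeded the control library by 1.14-fold (1.07 to 1.22), and the UV plus vitamin D library was 1.19-fold below the UV library (1.12 to 1.26). The differences lay outside counting error but under 1.5-fold. Fibroblasts formed a Pi16-rich cluster 11 and a collagen-rich cluster 13, and they differed in Mmp2. Cluster 11 had 1202, 1283 and 1075 CPM in the UV plus vitamin D, UV and control libraries, and cluster 13 had 750, 1183 and 1049 CPM, low in the UV plus vitamin D library alone. Macrophages, monocytes and dendritic cells had 5.92, 7.72 and 1.36 CPM of Mmp2, from 3, 25 and 1 counts. Keratinocytes had 7.87, 8.27 and 6.34 CPM, and their clusters went different ways within that sum. In cluster 9, led by late cornified envelope genes, Mmp2 was at 96.6 CPM in the UV plus vitamin D library, 42.0 CPM in the UV library and 89.6 CPM in the control library, from 356, 63 and 152 counts. The UV library was the low one there, 2.13-fold below the control library (1.58 to 2.91), and the UV plus vitamin D library was 2.30-fold above it (1.76 to 3.06). In cluster 7, led by Krt79 and Defb6, the UV library was the high one, with 5.37, 19.1 and 9.31 CPM from 5, 32 and 22 counts.

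Mmp9 was lowest in the UV library in one class and highest there in others. In macrophages, monocytes and dendritic cells it was at 132 CPM in the UV plus vitamin D library, 17.3 CPM in the UV library and 126 CPM in the control library. Here the UV library was low, 7.30-fold below the control library (5.19 to 10.4), and the UV plus vitamin D library was 7.64-fold above the UV library (5.28 to 11.1). The class was made differently in each library: cluster 10, rich in Ctss and class II genes, held 15, 460 and 20 of its cells and cluster 16, the Mrc1-positive macrophages, held 75, 130 and 114. Within cluster 16 Mmp9 was at 161, 57.4 and 158 CPM, so the same order held with a smaller gap of 2.76-fold between UV and control (1.94 to 3.97). In cluster 10 of the UV library 6 counts were found, all in 1 of 460 cells. After thinning each cell to 3000 counts, 30% of macrophages, monocytes and dendritic cells had an Mmp9 count in the UV plus vitamin D library, 2.88% in the UV library and 30.5% in the control library. Without thinning the shares were 38.9%, 5.42% and 40.3%, at median depths of 4957.5, 4471 and 4701 counts, and T and NK cells, taken as a class that should lack the gene, had 0 Mmp9 counts. Exact upper limits for their shares were 6.06%, 2.15% and 2.84%.

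In keratinocytes and fibroblasts Mmp9 was counted mainly in the UV library. Keratinocytes had 3 counts in the UV plus vitamin D library, 500 in the UV library and 10 in the control library, or 0.0453, 13.05 and 0.132 CPM. Fibroblasts had 0, 64 and 0 counts, which puts the UV library at least 7.04-fold above the control library and the UV plus vitamin D library at least 7.86-fold below the UV library, against a floor of 3 counts per library. Of the 64 counts, 59 were in a Crabp1-rich part of cluster 13 that a finer clustering set apart, with 104 of the UV fibroblasts. That part had 20 UV plus vitamin D cells and 17 control cells. Crabp1, a retinoic acid binding protein, was at 50.1 CPM in its UV plus vitamin D cells, 3691 CPM in its UV cells and 76.2 CPM in its control cells, and Krt10, a suprabasal keratin, was at 9266, 4746 and 9769 CPM in the same cells. The cells that the finer clustering grouped together thus differed between libraries. In Langerhans cells, with 23, 43 and 58 cells too few for a comparison, Mmp9 was at 44.6, 131 and 45.8 CPM from 8, 28 and 24 counts, so the UV library was the high one there too.

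Mmp3 is stromelysin 1, which cleaves proteoglycans and fibronectin and activates other pro-MMPs. In fibroblasts it was at 330 CPM in the UV plus vitamin D library, 810 CPM in the UV library and 286 CPM in the control library. The UV library was 2.83-fold above the control library (2.53 to 3.18), the UV plus vitamin D library was 2.45-fold below the UV library (2.22 to 2.72), and it stood at 1.15-fold of the control library (0.9999 to 1.333). Both fibroblast clusters had the highest level in the UV library, with 227, 365 and 105 CPM in cluster 11 and 489, 1024 and 552 CPM in cluster 13. Without the Crabp1-rich part of cluster 13, which held 1008 of its 2513 counts in the UV library, the levels were 726, 1103 and 815 CPM. The UV library was then 1.35-fold above the control library (1.19 to 1.55), under 1.5-fold, and the UV plus vitamin D library 1.52-fold below the UV library (1.33 to 1.74). The share of fibroblasts with an Mmp3 count was 23.0%, 55.8% and 29.6%, or 20.1%, 46.9% and 23.0% after thinning to 3000 counts, against 1.69%, 1.18% and 0.781% of T and NK cells without thinning. Median depths were 5185, 6586 and 4815 counts in fibroblasts and 7341, 3966 and 6550 in T and NK cells.

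Mmp3 was also counted in basal keratinocytes, where the UV plus vitamin D and UV libraries compared differently in 2 clusters. In the basal cluster 4, marked by Krt14 and Krt5, it was at 61.3 CPM in the UV plus vitamin D library, 47.8 CPM in the UV library and 13.1 CPM in the control library. There the UV library was 3.65-fold above the control library (2.59 to 5.14), and the UV plus vitamin D library was 1.28-fold above the UV library, with an interval of 0.963 to 1.73 that includes 1. A single cell held 32 of the 170 counts in the UV plus vitamin D library. In the dividing cluster 17, led by Top2a and Mki67, the levels were 20.8, 65.2 and 16.2 CPM, and the UV plus vitamin D library was 3.14-fold below the UV library (1.82 to 5.62). Over all keratinocytes the levels were 3.43, 11.4 and 1.47 CPM. Cluster 12 was part of this sum: in the UV library it had Mmp3 at 130 CPM, and in the other libraries it had 0 counts. Macrophages, monocytes and dendritic cells had 0, 50 and 0 counts, and 36 of the 50 were in 1 cell. Without the highest cell of each library the log2 ratio of UV against control in that class was 0.52, against 1.35 with it.

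**Figure D3:**
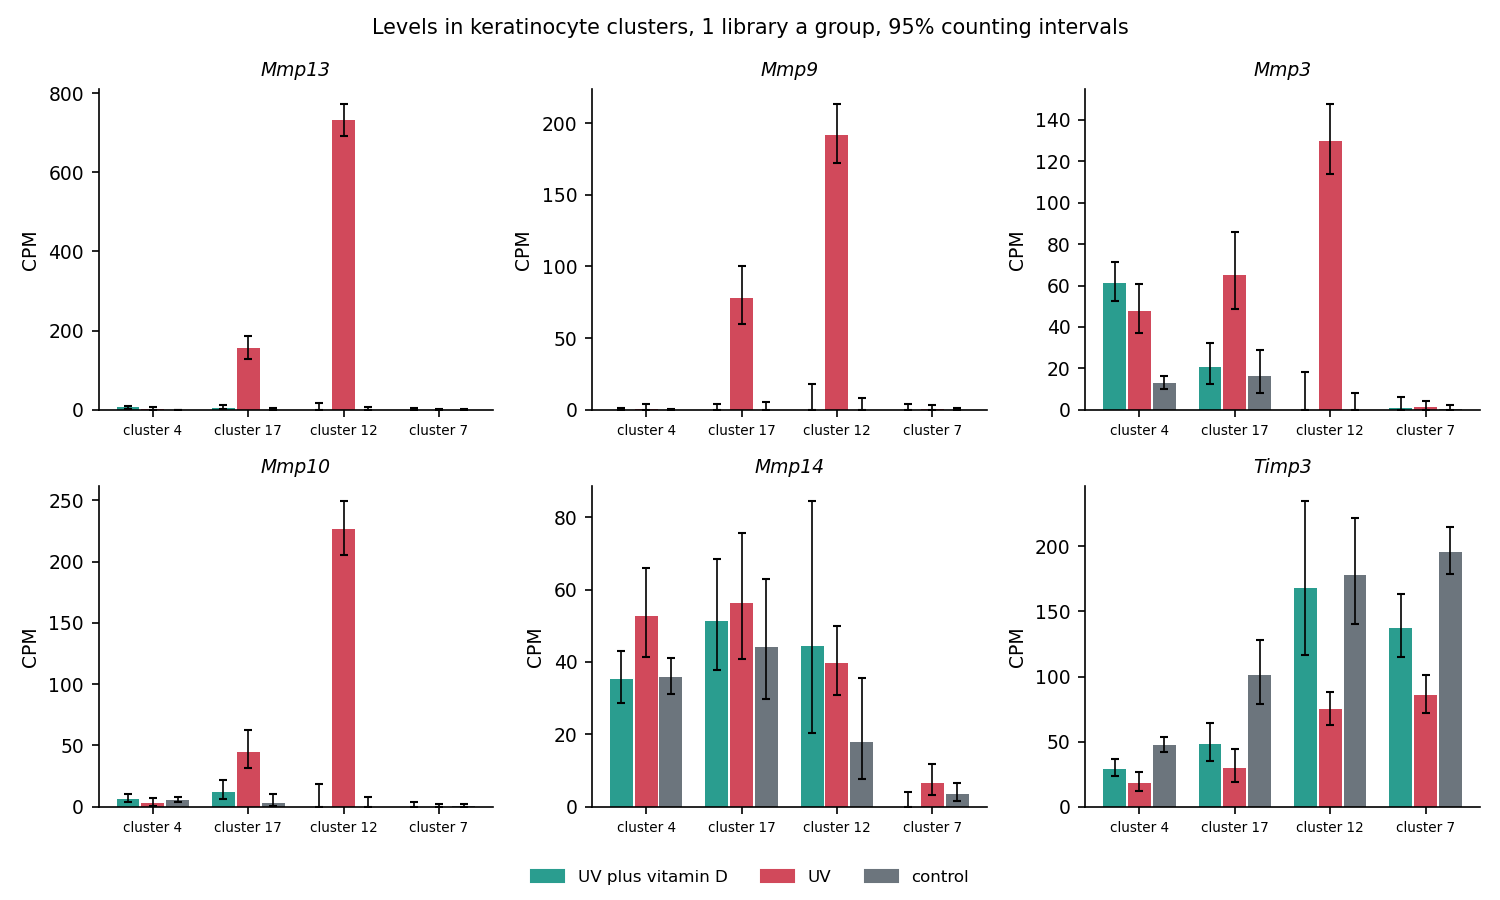
Bars give CPM with exact 95% Poisson intervals for Mmp13, Mmp9, Mmp3, Mmp10, Mmp14 and Timp3 in the basal cluster 4, the dividing basal cluster 17, the Krt6a-led follicle cluster 12 and the Krt79-led follicle cluster 7, by library. Mmp13, Mmp9 and Mmp10 stand out in cluster 12 of the UV library, while Mmp3 in cluster 4 is at 61.3 CPM in the UV plus vitamin D library and 47.8 CPM in the UV library, and Timp3 is lower in the UV library than in the control library in the 4 clusters.

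Mmp19 is a secreted metalloproteinase found in macrophages and vessels. In macrophages, monocytes and dendritic cells it was at 183 CPM in the UV plus vitamin D library, 150 CPM in the UV library and 147 CPM in the control library, with intervals of the ratios that include 1. Within cluster 16 the UV library stood higher, at 142, 263 and 123 CPM, 2.15-fold above the control library (1.64 to 2.84). Cluster 10, with 460 of the 590 cells of the class in the UV library, was at 108 CPM there. Fibroblasts had 32, 183 and 11 counts of Mmp19, or 23.9, 50.3 and 9.17 CPM, and the UV library was 5.49-fold above the control library (2.996 to 11.2). In cluster 13 both irradiated libraries were high, at 54.9 CPM with vitamin D and 59.9 CPM without, against 14.4 CPM in the control library. In cluster 11 the UV library alone was high, at 30.4 CPM against 3.70 CPM in the UV plus vitamin D library and 5.60 CPM in the control library. Keratinocytes had 8, 7 and 6 counts.

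Mmp14 is the membrane-type metalloproteinase MT1-MMP, which cleaves collagen at the cell surface and activates pro-MMP2 together with Timp2. In fibroblasts it was at 167 CPM in the UV plus vitamin D library, 358 CPM in the UV library and 254 CPM in the control library. The UV plus vitamin D library was the lowest, 2.14-fold below the UV library (1.86 to 2.48) and 1.52-fold below the control library (1.28 to 1.82), while the UV library exceeded the control library by 1.41-fold (1.24 to 1.60). In cluster 11 the levels were 150, 255 and 171 CPM and in cluster 13 they were 193, 408 and 377 CPM. The UV library was thus above the control library in cluster 11, and in cluster 13 the ratio of 1.08 had an interval of 0.923 to 1.27.

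Among macrophages, monocytes and dendritic cells Mmp14 was found almost only in the UV library, at 1.97, 51.9 and 4.07 CPM from 1, 168 and 3 counts. Its counts were in cluster 10, where 106 of the 460 UV cells had one and the level was 70.1 CPM. Cluster 16 held 0, 2 and 3 counts. With 15 cells of cluster 10 in the UV plus vitamin D library and 20 in the control library, the level in that cluster could not be compared between libraries. Keratinocytes had 3.66, 6.81 and 5.61 CPM.

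Timp1 is an inhibitor that many inflammatory signals induce. In fibroblasts it was at 80.6 CPM in the UV plus vitamin D library, 245 CPM in the UV library and 36.7 CPM in the control library. The UV library was 6.66-fold above the control library (4.92 to 9.24), and the UV plus vitamin D library was 3.03-fold below the UV library (2.48 to 3.74) and 2.20-fold above the control library (1.54 to 3.20). The order was the same in both clusters, with 29.6, 84.6 and 5.60 CPM in cluster 11 and 159, 322 and 82.5 CPM in cluster 13. The Crabp1-rich part of cluster 13 held 400 of its 789 Timp1 counts in the UV library. Without that part the levels were 241, 285 and 119 CPM, and the UV plus vitamin D library was 1.18-fold below the UV library, with an interval of 0.932 to 1.52 that includes 1. The share of fibroblasts with a Timp1 count was 15.8%, 41.7% and 11.3%, or 11.5%, 28.8% and 7.35% after thinning, against 3.39%, 2.35% and 0% of T and NK cells without thinning, where 0 of 128 control cells allows up to 2.84%.

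In keratinocytes Timp1 was low but higher in both irradiated libraries, with 225 counts in the UV plus vitamin D library, 141 in the UV library and 43 in the control library. These are 3.40, 3.68 and 0.569 CPM, so the UV plus vitamin D library was 5.97-fold (4.30 to 8.48) and the UV library 6.46-fold (4.56 to 9.32) above the control library, and over the class the 2 irradiated libraries differed by less than counting error. Such levels lie under the pseudocount of 10 CPM, on which neither class ratio passed 1.5-fold. Single clusters did pass it, and they did so in opposite directions between the irradiated libraries. Cluster 5, led by Sprr2d, had 116, 2 and 8 counts, and the UV plus vitamin D library was 16.96-fold above the UV library (4.59 to 142), with a log2 ratio of 0.77 to the control library. Cluster 6, led by Wfdc21, had 68, 63 and 23 counts, and the UV plus vitamin D library was 2.24-fold below the UV library (1.57 to 3.20). There the UV library was 3.66-fold above the control library, a log2 ratio of 0.87. Keratinocyte Timp1 sat in few cells, 54 of 5765 in the UV plus vitamin D library and 22 of 8476 in the control library. In the UV library 46 cells with 0 Mmp13 counts held 122 of the 141 counts. The counting intervals do not cover such clumping. In the Mrc1-positive cluster 16 Timp1 was at 24.8 CPM in the UV plus vitamin D library and 51.6 CPM in the UV library, against 1 count in the control library. Over macrophages, monocytes and dendritic cells it was at 23.7, 42.6 and 19.0 CPM, and 10 of the 14 control counts were in 1 cell.

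Timp2 inhibits gelatinases and also takes part in Mmp2 activation. Fibroblasts had 1122 CPM in the UV plus vitamin D library, 1073 CPM in the UV library and 1438 CPM in the control library. Both irradiated libraries were below the control library, by 1.28-fold with vitamin D (1.20 to 1.37) and by 1.34-fold without (1.27 to 1.42), and they differed from each other by 1.05-fold (0.985 to 1.11). Cluster 13 had 801, 886 and 1241 CPM and cluster 11 had 1331, 1461 and 1571 CPM, so the gap to the control library was wider in cluster 13. In cluster 16 the UV library was the high one instead, at 467, 825 and 470 CPM, 1.76-fold above the control library (1.53 to 2.03). Over macrophages, monocytes and dendritic cells as a whole, the level was 387, 328 and 379 CPM. Keratinocytes had 2.55, 6.89 and 3.03 CPM, high in the UV library.

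Timp3 is the inhibitor that stays bound to the matrix and also blocks ADAM proteases. It was the member that was lower in irradiated keratinocytes, at 8.06 CPM in the UV plus vitamin D library, 15.6 CPM in the UV library and 18.4 CPM in the control library. The UV plus vitamin D library was 2.28-fold below the control library (2.06 to 2.52). The order of the irradiated libraries turned round inside clusters. In cluster 7, led by Krt79 and Defb6, Timp3 was at 138, 85.8 and 196 CPM, and in the basal cluster 4 it was at 29.2, 18.3 and 47.4 CPM. The UV library was the lowest in both clusters, 2.28-fold below the control library in cluster 7 (1.89 to 2.77) and 2.597-fold below it in cluster 4 (1.73 to 4.05). Cluster 7 held 162 of 5765 keratinocytes in the UV plus vitamin D library, 255 of 3588 in the UV library and 414 of 8476 in the control library. Cluster 4 held 455, 281 and 1067 in the same order. The part of these cluster shares in the class value was not tested.

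In fibroblasts Timp3 was at 97.8, 108 and 122 CPM, with intervals of the ratios that include 1. In cluster 11 the UV plus vitamin D library was 1.64-fold below the UV library (1.26 to 2.15), at 98.6 and 162 CPM, against 134 CPM in the control library. T and NK cells had 2 Timp3 counts in the UV plus vitamin D library, 23 in the UV library and 39 in the control library, or 3.69, 23.3 and 40.2 CPM. The few blood endothelial cells could be described for the UV library alone, where 77 cells had Timp2 at 469 CPM, Mmp2 at 215 CPM, Timp1 at 125 CPM and Timp3 at 101 CPM.

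Ctsk is a lysosomal collagenase made by fibroblasts of healing skin. In fibroblasts it was at 548 CPM in the UV plus vitamin D library, 1536 CPM in the UV library and 1079 CPM in the control library. The UV plus vitamin D library was the lowest, 2.80-fold below the UV library (2.59 to 3.03) and 1.97-fold below the control library (1.80 to 2.16). The fibroblast clusters differed in this gene more than the libraries did. Cluster 13, which Ctsk helps to define, had 1000, 2140 and 2414 CPM, and cluster 11 had 254, 281 and 172 CPM. Cluster 13 made up 66 of 209 fibroblasts in the UV plus vitamin D library, 300 of 482 in the UV library and 69 of 213 in the control library. Over the class the UV library was 1.42-fold above the control library (1.34 to 1.51). In cluster 11 it was 1.63-fold above the control library (1.32 to 2.02), and in cluster 13 it was 1.13-fold below it (1.06 to 1.20). The part of the cluster shares in the class values was not tested. Without the Crabp1-rich cells the levels in cluster 13 were 1510, 3042 and 3545 CPM. Outside fibroblasts Ctsk was low: macrophages, monocytes and dendritic cells had 2, 68 and 0 counts, 64 of the 68 in cluster 10, and keratinocytes had 0.302, 3.31 and 0.662 CPM.

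**Figure D4:**
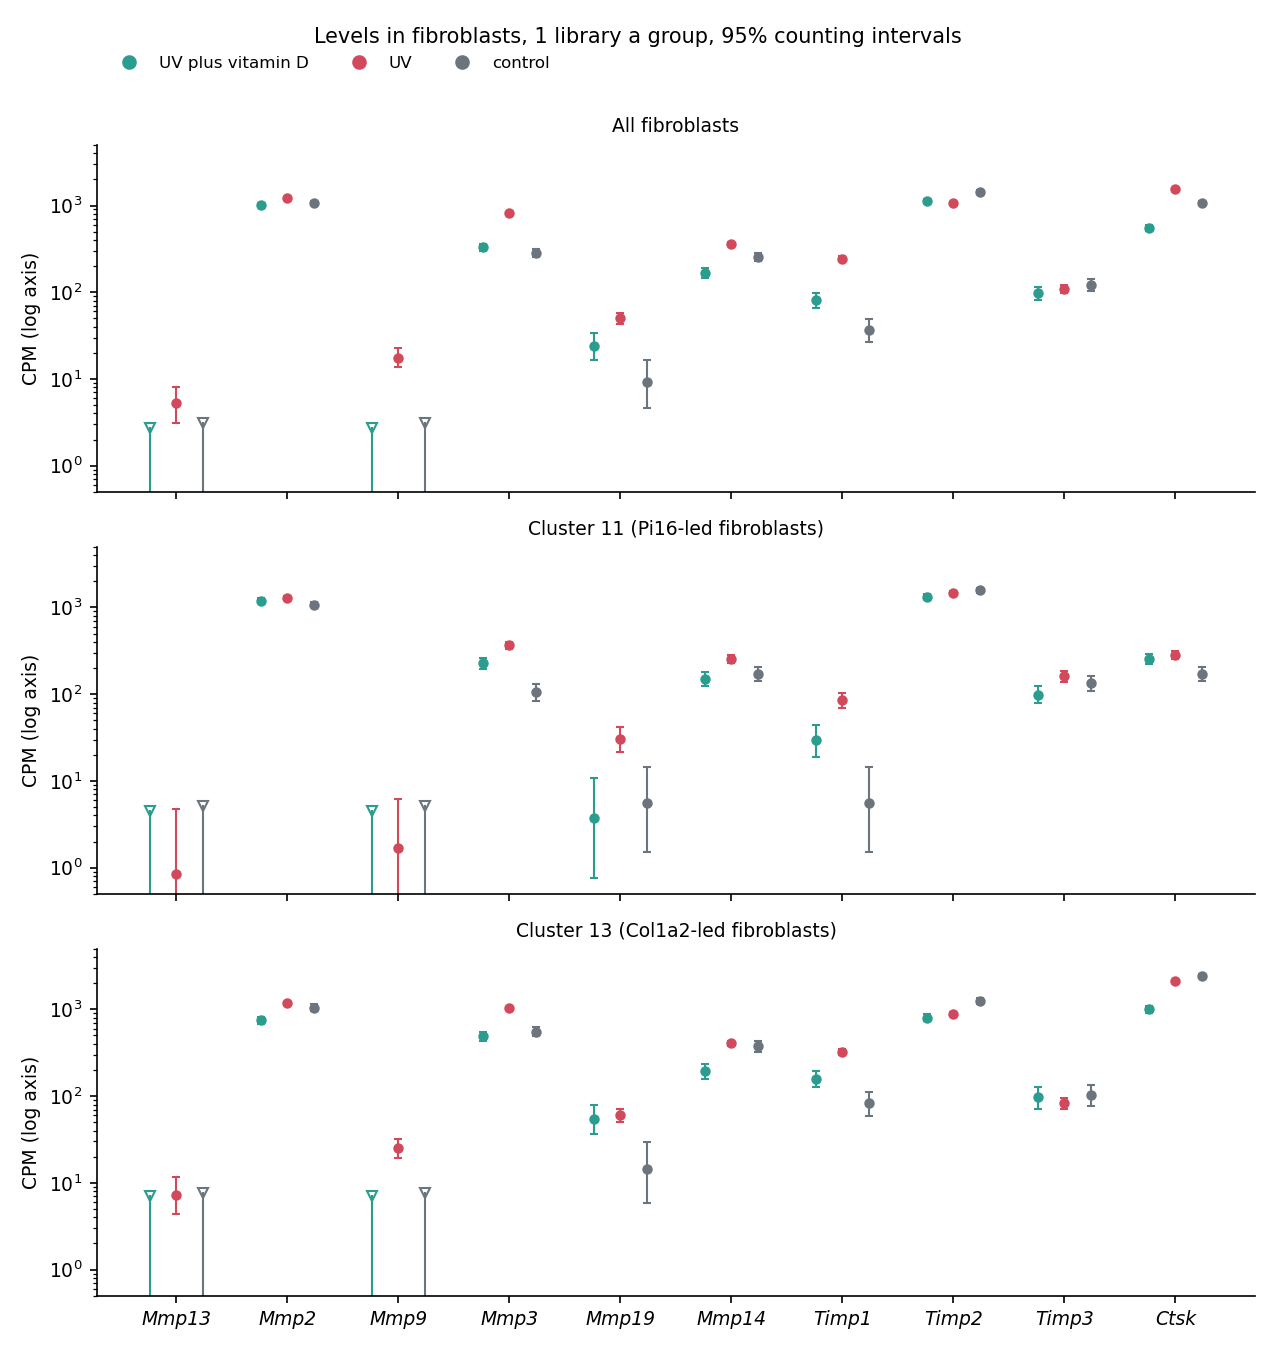
CPM on a log axis with exact 95% Poisson intervals is shown for each gene in all fibroblasts, in the Pi16-rich cluster 11 and in the collagen-rich cluster 13, by library, with open triangles for the upper limit at 0 counts. Mmp3 and Timp1 are highest in the UV library in both clusters, whereas the order for Ctsk differs between the clusters.

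Counts of members past 1.5-fold are set beside the percent of all tested genes past it, given as background. A gene high in 1 library alone can pass the minimum of 20 counts through that library, among the members and in the background. In fibroblasts 9 of the 10 genes passed the minimum of 20 counts for UV against control. Mmp3, Mmp9, Mmp19 and Timp1, 4 of the 9, were past 1.5-fold on the high side and 0 on the low side (background 15.6% high and 3.45% low). In UV plus vitamin D against UV 9 passed, with 0 higher and 6 lower, namely Mmp3, Mmp9, Mmp14, Mmp19, Timp1 and Ctsk (background 6.29% higher and 13.5% lower). For UV plus vitamin D against control 8 passed, with 2 higher (Mmp19 and Timp1) and 1 lower (Ctsk), beside a background of 8.58% and 3.78%. The median log2 ratio of the genes that passed was 0.51, -1.06 and -0.17 in these comparisons, beside 0.15, -0.09 and 0.08 over all genes tested. In cluster 11 UV against control had 4 of 8 higher and 0 lower (background 14.5% and 6.99%), UV plus vitamin D against UV 0 higher and 5 of 8 lower (background 8.49% and 12%), and UV plus vitamin D against control 2 of 7 higher and 0 lower (background 11.1% and 6.73%). Cluster 13 had 4 of 9 higher and 0 lower in UV against control (background 22.1% and 6.96%), 0 higher and 6 of 9 lower in UV plus vitamin D against UV (background 13.6% and 19%), and 2 of 8 higher and 3 lower in UV plus vitamin D against control (background 18.2% and 6.35%).

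In keratinocytes 9 passed for UV against control, with 3 higher (Mmp3, Mmp9 and Mmp13) and 0 lower, beside a background of 2.43% and 1.2%. The same 3 were the ones lower in UV plus vitamin D against UV, of 9 that passed, beside a background of 1.5% lower and 0.26% higher. Without the keratinocytes holding at least 3 Mmp13 counts, the log2 ratios for UV against control were 0.44 for Mmp3, 0.32 for Mmp9 and 0.17 for Mmp13, under 1.5-fold. For UV plus vitamin D against UV they were -0.22, -0.33 and -0.17, also under it. For Mmp13 the fall in both comparisons follows from choosing the cells by their Mmp13 counts. With the 10 genes left out of the clustering, 0 members differed in keratinocytes in either comparison. The class then no longer held most of the Mmp13-rich cells. For UV plus vitamin D against control 8 passed, with 0 higher and 1 lower (Timp3), beside a background of 1.36% and 0.779%.

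Among macrophages, monocytes and dendritic cells 9 passed for UV against control, with 6 higher (Mmp2, Mmp3, Mmp13, Mmp14, Timp1 and Ctsk) and 1 lower (Mmp9), beside a background of 18.4% and 6.1%. Of the 6, Mmp2 had 25 counts in the UV library and 1 in the control library, and its log2 ratio was -0.0175 with each cell assigned on its own. Mmp3 was at 0.52 without the highest cell of each library. Mmp14 was at -0.30 within cluster 16, from 2 UV and 3 control counts, too few to compare. Ctsk had 4 UV and 0 control counts in cluster 16, under the minimum, and most of its 68 UV counts were in cluster 10. Of the 151 UV counts of Mmp13, 110 were in cluster 10, and 1 cell held 20 of the 41 in cluster 16. Cluster 10 had 15 UV plus vitamin D and 20 control cells, too few to compare. When UV plus vitamin D was set against UV 9 passed, with 1 higher (Mmp9) and 5 lower (Mmp3, Mmp13, Mmp14, Timp1 and Ctsk), beside a background of 8.5% and 17.2%. The 5 lower members had 0, 6, 1, 12 and 2 counts in the UV plus vitamin D library, so they too passed the minimum through the UV library. For UV plus vitamin D against control 4 passed and 0 differed by 1.5-fold, beside a background of 11.1% higher and 6.95% lower. In cluster 16 UV against control had 5 of 6 higher (Mmp3, Mmp13, Mmp19, Timp1 and Timp2) and 1 lower (Mmp9), beside a background of 22.3% and 6.88%. For UV plus vitamin D against UV the same members lay the other way, with 1 higher and 5 of 6 lower (background 8.02% and 18.9%). Mmp3 is in both counts through 1 cell of the UV library that held 36 of its 41 counts. Of the 10, 3 passed there for UV plus vitamin D against control and 0 differed (background 12.1% and 7.7%). In T and NK cells Timp3 passed in each comparison, Timp2 also in UV plus vitamin D against UV, and the other members in none. Timp3 was lower in UV against control (background 16.8% higher and 15.6% lower), in UV plus vitamin D against UV (18% and 18.5%) and in UV plus vitamin D against control (11.1% and 9.87%).

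**Figure D5:**
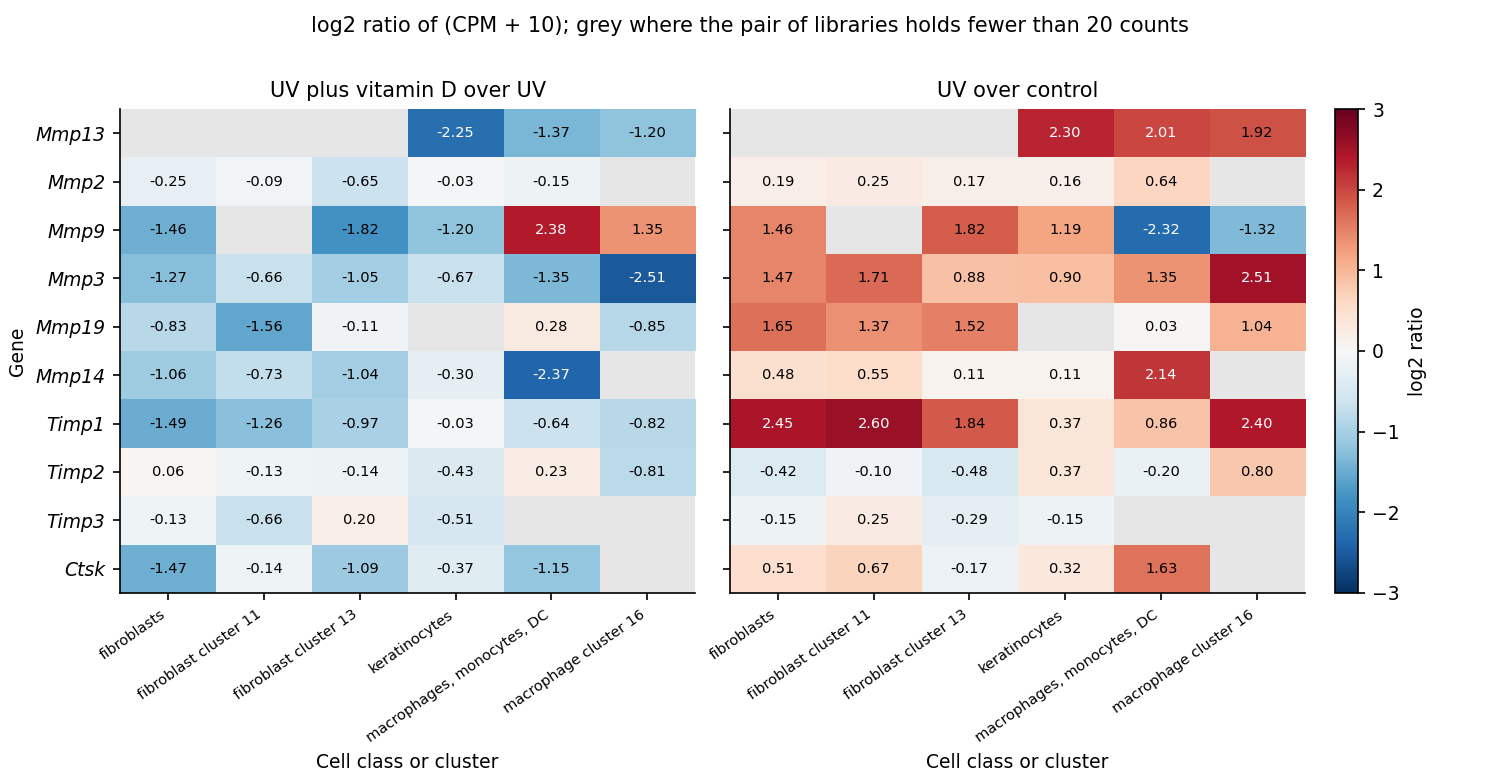
Heat maps give the log2 ratio of CPM + 10 for each gene and cell class or cluster, with UV plus vitamin D over UV at the left and UV over control at the right, and grey where fewer than 20 counts were found. Mmp9 is at -2.32 in macrophages, monocytes and dendritic cells and at 1.46 in fibroblasts for UV over control.

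The 65 other genes of the same protease system, listed with earlier results known, were counted in the same way. In fibroblasts 49 passed, of which 18 were higher and 0 lower in UV against control, and 1 was higher and 20 lower in UV plus vitamin D against UV. Of all genes that passed, 15.6% were higher and 3.45% lower for UV against control, and 6.29% were higher and 13.5% lower for UV plus vitamin D against UV. The median log2 ratios were 0.35 and -0.38. By role, 5 of 8 lysosomal cathepsins, 4 of 12 activators, inducers and clearance receptors, 4 of 19 ADAM and ADAMTS proteases, 3 of 6 other inhibitors and 2 of 4 other MMPs were higher in UV against control, to be read against the same 15.6%. Mmp11, stromelysin 3, was at 0 CPM in the UV plus vitamin D library, 24.8 CPM in the UV library and 0.834 CPM in the control library. Adam12, a membrane protease of mesenchymal cells, was at 20.9 CPM in the UV library and had 0 counts in the others, which puts the UV library at least 8.36-fold above the control library. Thbs1, a matrix glycoprotein that activates TGF-beta, was at 159 CPM in the UV library and 40.0 CPM in the control library. Ctss, a cathepsin of antigen-presenting cells, was at 0.747, 34.7 and 0.834 CPM in the fibroblasts of the UV plus vitamin D, UV and control libraries beside the macrophage markers given above, whose part in this was not tested. Serpinh1, the collagen chaperone, was at 609 CPM in the UV plus vitamin D library and 1603 CPM in the UV library.

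Between the UV plus vitamin D and control libraries 2 of 40 genes of the system were higher in fibroblasts and 4 lower, beside a background of 8.58% and 3.78%. Cst6, a cystatin that inhibits cathepsins, was at 405 CPM against 134 CPM. Mmp27 was at 29.9 against 60.9 CPM, Adamts4, which cleaves aggrecan, at 55.3 against 103 CPM, and Sparc, a collagen-binding matrix protein, at 10701 against 17461 CPM. In macrophages, monocytes and dendritic cells 15 of 31 were higher and 0 lower in UV against control (background 18.4% and 6.1%). In UV plus vitamin D against UV 0 were higher and 9 of 32 lower (background 8.5% and 17.2%). Ctss was at 1298 CPM in the UV plus vitamin D library, 3939 CPM in the UV library and 1094 CPM in the control library. Thbs1 was at 258, 930 and 312 CPM, and Lrp1, the receptor that clears MMP and TIMP complexes, at 67.1, 156 and 51.6 CPM. Sparc was at 35.5, 91.4 and 17.6 CPM there, beside the fibroblast markers given above. Adam15 was at 71.0 CPM and Ctsa at 304 CPM in the UV plus vitamin D library, against 38.0 and 166 CPM in the control library, and the syndecan gene Sdc1 at 47.3 against 121 CPM.

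The counts of the 6 MMPs were set against those of the 3 TIMPs, as a sum that is not scaled by gene length and is compared only between libraries. Fibroblasts had 1.19 MMP counts per TIMP count in the UV plus vitamin D library (1.11 to 1.27), 1.72 in the UV library (1.66 to 1.78) and 1.01 in the control library (0.949 to 1.08). The highest value was that of the UV library, and the UV plus vitamin D library lay between the others. In cluster 11 both irradiated libraries were alike, at 1.08 and 1.13, above 0.793 in the control library. In cluster 13 the UV library alone was high, at 2.10, with 1.41 in the UV plus vitamin D library and 1.40 in the control library. Without the Crabp1-rich part these were 1.41, 1.88 and 1.45, the UV value still the highest. Keratinocytes had 1.10, 3.01 and 0.622, and 1.08, 0.944 and 0.622 without the cells holding at least 3 Mmp13 counts. Without those cells the intervals of the 2 irradiated libraries overlapped, and both lay above the control library. Mmp13 is in the MMP sum, so part of the fall in the UV library follows from how those cells were chosen. Macrophages, monocytes and dendritic cells had 0.817, 0.773 and 0.696 with overlapping intervals.

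Over the 17 sums of 1 class in 1 library with at least 50 cells, the genes with the most similar log2 levels, among 5154 that reached 50 CPM, were taken 2 to a gene. For Mmp2 they were Fndc1 (Pearson r 0.99) and Col5a2, for Mmp3 Bdh2 and Col5a3 (0.99 for both), and for Ctsk Lum and Angptl2 (0.99 for both). Mmp14 was most like Sparc (0.94) and Serpinh1 (0.93), Timp1 like Plod1 (0.95) and Gbp2 (0.94), and Timp2 like Cd302 and Cpq (0.98 for both). Mmp19 followed Ccl8 (0.99) and Ifit3 (0.98), and Mmp9 followed Ltc4s and Snx8 (0.91 for both). The closest genes to Mmp13 were Krt6b (0.82) and Slc37a2 (0.77), and those to Timp3 were Ctps (0.91) and Htra1 (0.89). These are descriptions over sums that share libraries and depth.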

How the data were processed

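The deposited files are raw counts, 1 table of genes by cell barcodes for each library. The authors' tools were FastQC, fastp, STAR and featureCounts, per the submitters' processing notes, which give no version. The same notes name GRCh38, which is a human build, although the tables hold mouse symbols. The sources used here do not say whether molecules or reads were counted; with reads the intervals are too narrow. Barcodes with under 200 genes or over 20% mitochondrial counts were left out. The kept cells held 69126823 counts in the UV plus vitamin D library, 50610389 in the UV library and 79450666 in the control library.

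Cells of the 3 libraries were clustered together with scanpy 1.11.5 (10000 counts per cell, log scale, 2000 variable genes, scaled, 30 principal components, 15 neighbours, Leiden resolution 1 with leidenalg 0.10.2, no correction between libraries) and named from 23 marker lists. Scrublet marked 54 cells of the UV plus vitamin D library, 96 of the UV library and 0 of the control library, so it had not worked on all, and all cells were kept. Counts were summed per class and library, scaled to CPM, and compared as log2(CPM + 10) in classes with at least 50 cells in both libraries. With 1 library a group no test or p-value was computed: a difference is counted when it is at least 1.5-fold on that scale with at least 20 counts in the pair. Poisson, binomial and conditional 95% intervals (scipy 1.17.1) are exact. The scripts were tested on simulated data.

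The members and lists were chosen with earlier results of these data known. All 10 members are named, with up to 4 genes of the pathway list per comparison in fibroblasts and in macrophages, monocytes and dendritic cells, those furthest apart past 1.5-fold, and for each member the 2 genes of highest Pearson r. Alternatives covered the pseudocount, count filters, scaling, class definition, doublets, single cells and single clusters. Some genes at high level in the Mmp13-rich keratinocytes are not reported here.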

Additional observations from a re-analysis of the deposited data

Results flagged for a closer look

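Mmp9 is listed here because its difference between libraries had opposite directions in different cell classes, each class being 1 sum of cells per library. For UV against control its log2 ratio of CPM + 10 was 1.46 in fibroblasts and 1.19 in keratinocytes, but -2.32 in macrophages, monocytes and dendritic cells. For UV plus vitamin D against UV it was -1.46 in fibroblasts and -1.20 in keratinocytes, but 2.38 in macrophages, monocytes and dendritic cells. The difference between classes was not tested, since each library has no replicate. Of the 64 fibroblast counts, 59 were in the Crabp1-rich cells, and 400 of the 500 UV keratinocyte counts were in the 34 keratinocytes with at least 3 Mmp13 counts. Within the Mrc1-positive macrophage cluster 16 the log2 ratio was -1.32 for UV against control and 1.35 for UV plus vitamin D against UV.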

How the results depend on the processing

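Of the 74 class ratios 20 moved by more than their counting error at Leiden resolution 2 and 17 with a pseudocount of 1 CPM. With each cell assigned on its own 16 moved and 1 reversed. With the total taken without mitochondrial, rRNA and haemoglobin genes, 5 of the 74 moved by more than their counting error. With median-of-ratios size factors or without mixed-lineage cells, none of the 74 class ratios moved by more than its counting error and none past 1.5-fold changed direction, although 1 of the 33 past 1.5-fold fell under it without those cells. No paired analysis was possible because each group has 1 library. Leaving out a replicate was not possible for the same reason. A further setting kept 1 cluster per class, not always the one with the most cells. It was cluster 11 in fibroblasts and cluster 16 in macrophages, monocytes and dendritic cells. In keratinocytes it was cluster 8 where the UV library was compared, and cluster 1 otherwise. Cluster 8 had 31 UV plus vitamin D and 14 control cells, under the minimum of 50, so it says little. Within these clusters 12 of the 33 ratios past 1.5-fold fell under it. Among the 74 class ratios 32 moved by more than their counting error and 3 reversed. Of the 3, Mmp19 and Mmp14 were under the minimum of 20 counts, so their direction could not be read. For UV plus vitamin D against control in fibroblasts Ctsk was at 0.53 (-0.96 in the class). Mmp19 was at -0.19 there (0.82 in the class), from 3 and 4 counts. For UV against control in macrophages, monocytes and dendritic cells Mmp14 was at -0.30 (2.14 in the class), from 2 and 3 counts. With each cell assigned on its own, Mmp2 in the same class was at -0.0175 for UV against control (0.64 by clusters), 2 members were higher there for UV plus vitamin D against UV and 1 for UV plus vitamin D against control, and fibroblasts held 60.5% of the members' counts in the UV plus vitamin D library, 69.6% in the UV library and 57.7% in the control library. At equal class shares, whole-library Timp2 reversed to -0.0696 for UV against control, and for UV plus vitamin D against UV Mmp19 was at 0.0045 and Timp2 at 0.014.

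A pseudocount of 1 CPM in place of 10 raised the counts of members most in keratinocytes, to 6 higher for UV against control, 7 lower for UV plus vitamin D against UV and 2 higher for UV plus vitamin D against control. No share of all genes past 1.5-fold is given for the alternative settings of this section. Their counts of genes thus have no background beside them and are not results about the members. The lower members in fibroblasts for UV plus vitamin D against control became 2. For the 65 other genes of the system the pseudocount of 1 CPM gave 2 higher in fibroblasts for UV plus vitamin D against UV, 14 higher in keratinocytes for UV against control, 14 lower for UV plus vitamin D against UV, 3 lower for UV plus vitamin D against control, and in macrophages, monocytes and dendritic cells 14 lower for UV plus vitamin D against UV and 2 lower for UV plus vitamin D against control. At a pseudocount of 10 CPM the 3 keratinocyte counts were 9 higher, 6 lower and 0 lower. With no filter on counts 1 member was higher and 1 lower in that class for UV plus vitamin D against control, and with at least 100 counts 1 of the other genes was higher. When the 10 genes were left out of the clustering, 27 of the 34 Mmp13-rich cells had another class, as did cells beyond them. In keratinocytes 0 members then differed by 1.5-fold for UV against control or for UV plus vitamin D against UV. At Leiden resolution 2 these counts were 8 and 8, with the Crabp1-rich cells named keratinocytes, and fibroblast Mmp9 was at 0.26 for UV against control. The settings with the genes left out, at equal class shares, without the Mmp13-rich keratinocytes and without the Crabp1-rich part of cluster 13, and the counts of members at resolution 2, were chosen after seeing the data.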
